A study of Mus musculus with 60 samples.

Results

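Transforming growth factor beta (TGF-beta) genes were followed in mouse cancer-associated fibroblasts (CAFs) grown with lung cancer cells. The set holds 9 of the 48440 genes listed, chosen by symbol with earlier results of these data known. They are the ligand genes Tgfb1, Tgfb2 and Tgfb3, the receptor genes Tgfbr1 and Tgfbr2, the latent binder genes Ltbp1 and Ltbp2, and the target genes Pmepa1 and Smad7. All 9 passed the count filter in each of the 3 tables analysed, so none was left out of a test.

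RNA was sequenced in bulk from CAFs that the labels call tCAFs, a prefix they do not explain. In multicellular aggregates, where cells touch, CAFs were grown with 344SQ cells, with 393P cells or alone (n = 3 replicates each). In further aggregates the 344SQ cells carried an shRNA against Zeb1 (shZEB1) or a control shRNA (shCTL; n = 3 each). In Boyden chambers a membrane lay between the CAFs and the 344SQ cells or 393P cells, and other chambers held CAFs alone (n = 5 replicates each, with 3 technical libraries per replicate that were summed). Before lysis the CAFs were sorted by flow cytometry, per the labels' protocols, which name no sorting marker. The titles of the aggregate libraries of CAFs alone carry the tag GFP (green fluorescent protein), and those of the other libraries do not. Of the mouse lung adenocarcinoma lines, 344SQ is known as metastatic in mice and 393P as poorly metastatic. The replicates are labelled biological, but no label says if separate fibroblast isolates gave rise to them, and p-values measure only the spread between these samples.

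The TGF-beta ligands are made as precursors that the protease furin cleaves and that stay wrapped in their own propeptide. Latent TGF-beta binding proteins such as the product of Ltbp1 tie this complex to fibrillin fibres of the matrix, and integrins or thrombospondin 1 can release the ligand. A free ligand binds the type II receptor (Tgfbr2), which activates the type I receptor (Tgfbr1), and Smad proteins then carry the signal to the nucleus. Pmepa1 and Smad7 are induced by the signal and encode inhibitors of it. In fibroblasts the pathway is known for driving collagen synthesis and the contractile myofibroblast state.

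Identifiers are given as in the deposited tables, and positions are those of GENCODE M21 on GRCm38. Tgfb1 (ENSMUSG00000002603.15) spans bases 25687002 to 25705077 of chromosome 7, Tgfb2 (ENSMUSG00000039239.14) 186622792 to 186705989 of chromosome 1, and Tgfb3 (ENSMUSG00000021253.6) 86056745 to 86079041 of chromosome 12. Tgfbr1 (ENSMUSG00000007613.15) spans 47353222 to 47414931 of chromosome 4 and Tgfbr2 (ENSMUSG00000032440.12) 116084293 to 116175360 of chromosome 9. Ltbp1 (ENSMUSG00000001870.15) spans 75005568 to 75392512 of chromosome 17, Ltbp2 (ENSMUSG00000002020.15) 84783212 to 84876532 of chromosome 12, and Pmepa1 (ENSMUSG00000038400.15) 173224458 to 173276533 of chromosome 2. The identifier of Smad7 is ENSMUSG00000025880.11.

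The 250 bases before the RefSeq start are shown for a pair of ligand genes and a latent binder gene that moved differently in the results. Capitals mark CAGAC or its reverse complement GTCTG, the Smad box with its flank, searched on both strands. The windows are from RefSeq on GRCm38.p6, 5′ to 3′ on the strand of the gene, for Tgfb1 at chr7:25686752-25687001 (plus strand), Tgfb2 at chr1:186705990-186706239 (minus strand) and Ltbp1 at chr17:75005279-75005528 (plus strand).
Tgfb1: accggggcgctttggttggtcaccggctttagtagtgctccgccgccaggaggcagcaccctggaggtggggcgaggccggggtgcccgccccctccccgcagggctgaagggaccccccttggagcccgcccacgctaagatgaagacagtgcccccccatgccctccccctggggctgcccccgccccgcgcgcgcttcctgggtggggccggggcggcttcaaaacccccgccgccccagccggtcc
Tgfb2: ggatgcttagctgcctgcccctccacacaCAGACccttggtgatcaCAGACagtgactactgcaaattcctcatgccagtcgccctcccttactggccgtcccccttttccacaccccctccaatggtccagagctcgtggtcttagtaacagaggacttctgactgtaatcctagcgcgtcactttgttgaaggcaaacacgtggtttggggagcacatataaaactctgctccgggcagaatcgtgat
Ltbp1: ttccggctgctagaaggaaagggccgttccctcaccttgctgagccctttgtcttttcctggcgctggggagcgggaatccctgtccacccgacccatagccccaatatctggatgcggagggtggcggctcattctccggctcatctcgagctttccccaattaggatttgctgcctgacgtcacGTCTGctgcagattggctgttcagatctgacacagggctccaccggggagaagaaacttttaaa
The Tgfb1 window held no match. The Tgfb2 window held 2, which began 221 and 204 bases before the start, and the Ltbp1 window shown held 1, which began 64 bases before it. The window of a downstream RefSeq start of Ltbp1, chr17:75178531-75178780, is not shown and held 2 matches, which began 148 and 97 bases before that start. RefSeq windows were searched for 6 of the 9 genes, with Smad7 left out of the search, and 6 of their 8 windows held a match. The share over all 32851 windows of the same length was 42.2%. A match is a description of the letters and not a site of binding.

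The aggregate libraries held 757717 to 1258751 counts, the shRNA libraries 739530 to 2144803, and the summed Boyden replicates 4182944 to 8542262. Genes of ribosomal RNA type and mitochondrial genes took 43.5% to 51.8%, 45.2% to 61.7% and 12.4% to 16.8% of these counts. Replicates varied by a biological coefficient of variation of 16.2% (aggregates), 61.7% (shRNA) and 8.58% (Boyden). As a sum, fibroblast markers were abundant throughout, with 12 markers summing to 4294 to 9230 CPM (counts scaled to the library total) in aggregates, 1819 to 4897 CPM with the shRNAs and 7279 to 9677 CPM in Boyden chambers. Single markers were not all abundant: Lum was at most 3.18, 4.09 and 1.37 CPM in these tables, and Fap stood at 1.21 to 3.52 CPM in Boyden chambers. Col1a1, Col1a2, Col3a1 and Dcn of this sum are also in the pathway lists read below. The 8 macrophage and leukocyte markers summed to 7.25 to 42.3 CPM in aggregates, 43.0 to 177 CPM with the shRNAs and 16.0 to 27.0 CPM in Boyden chambers. Among them Adgre1 was at 0 in every library and Ptprc in every aggregate library, while Cd68 stood at 4.53 to 27.3 CPM in the aggregates. The shRNA libraries stand apart in their carcinoma markers, with 16 markers summing to 116 to 1643 CPM there, against 7.09 to 97.8 CPM in the aggregate table.

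Contact with 393P cells changed 5 of the 9 genes in CAFs. The ligand gene Tgfb1 was 3.84-fold higher than in CAFs alone, the receptor gene Tgfbr1 2.22-fold and the target gene Pmepa1 2.48-fold, while the latent binder genes Ltbp1 and Ltbp2 were 1.96-fold and 2.40-fold lower. A count of 5 in 9 stands against a background of 10.7% of the 7992 genes tested that were called at an adjusted p under 0.05 (edgeR quasi-likelihood test). Because the genes and lists were chosen with earlier results known, such shares here and below are descriptions and no test of a set. The median log2 change was 0.26 over the 9 genes and -0.0023 over all genes tested. Levels here and below are CPM after TMM scaling in edgeR, and log2 changes carry a standard error (SE).

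Tgfb1 encodes the ligand most studied in fibrosis. It stood at 117, 176 and 164 CPM in CAFs with 393P, against 40.5, 41.0 and 37.6 CPM in CAFs alone. All 3 libraries with 393P lay above all 3 of CAFs alone, and the log2 change was 1.94 ± 0.20 (SE, adjusted p = 2.83e-08, edgeR). Tgfb3 stood at 72.2, 72.2 and 72.1 CPM with 393P and at 57.7, 50.2 and 51.2 CPM in CAFs alone. These groups did not overlap either, but the log2 change of 0.44 ± 0.21 missed the threshold (adjusted p = 0.218). Tgfb3 counts are uncertain, because Ttll5 lies across the gene on the opposite strand, had 191 counts in the aggregate table beside the 538 of Tgfb3, and the strand setting of the counting is not given in the sources used here. Tgfb2 stood at 28.1, 37.3 and 24.0 CPM with 393P and 20.7, 22.5 and 32.4 CPM in CAFs alone, overlapping groups with a log2 change of 0.26 ± 0.29 (adjusted p = 0.694).

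The receptors differed from each other. Tgfbr1, the type I receptor gene, stood at 71.3, 76.9 and 67.9 CPM with 393P, against 34.5, 37.0 and 26.1 CPM in CAFs alone. Every library with 393P was well above the highest of CAFs alone, for a log2 change of 1.15 ± 0.22 (adjusted p = 0.000456, edgeR). Tgfbr2, the type II receptor gene, stood at 118, 134 and 161 CPM with 393P and at 147, 92.5 and 111 CPM in CAFs alone. Its groups overlapped, and its log2 change was 0.22 ± 0.18 (adjusted p = 0.560).

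Both latent binder genes fell. Ltbp1, whose product links latent ligand to the matrix, stood at 114, 122 and 141 CPM with 393P, against 265, 240.5 and 229 CPM in CAFs alone. The groups were far apart, with a log2 change of -0.97 ± 0.18 (adjusted p = 0.000239, edgeR). Ltbp2 encodes a family member that sits on fibrillin fibres and is not known to hold latent ligand itself. It stood at 58.2, 64.2 and 76.3 CPM with 393P and at 86.2, 222 and 176 CPM in CAFs alone, a log2 change of -1.26 ± 0.26 (adjusted p = 0.000877). The groups did not overlap, but replicate 1 of CAFs alone lay close to the libraries with 393P.

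The targets split. Pmepa1, whose product removes receptor-activated Smads from the pathway, stood at 231, 245 and 227 CPM with 393P, against 80.1, 102 and 102 CPM in CAFs alone. The 393P libraries were all more than 2 times as high as the highest library of CAFs alone, and the log2 change was 1.31 ± 0.17 (adjusted p = 9.59e-07, edgeR). Smad7, an inhibitory Smad gene, stood at 47.8, 43.6 and 36.6 CPM with 393P and at 32.7, 46.3 and 35.5 CPM in CAFs alone, overlapping groups with a log2 change of 0.18 ± 0.25 (adjusted p = 0.763).

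The 5 calls of CAFs with 393P held when each replicate was left out in turn. In the same libraries the 16 carcinoma markers summed to 22.6 to 97.8 CPM with 393P and 7.09 to 13.2 CPM in CAFs alone, with Sftpc at 0 throughout. The 12 fibroblast markers summed to 7720 to 9230 CPM with 393P, against 4294 to 7022 CPM in CAFs alone, and the 8 macrophage and leukocyte markers to 7.25 to 28.2 CPM with 393P, against 24.3 to 42.3 CPM. Of the 11 fibroblast markers tested, 5 were higher and 2 lower with 393P, against 10.7% of all genes called. With the carcinoma marker level as a covariate, an alternative chosen after seeing the data, edgeR called 366 genes in place of 853, and each of the 5 TGF-beta genes kept its call. That level did not overlap between these groups, was far highest in 393P replicate 3 (97.8 CPM), and rests on markers that all failed the count filter. The covariate is thus confounded with the group, and the kept calls cannot tell carcinoma RNA and contact apart. The part of fibroblast and leukocyte marker levels in these changes was not tested. In bulk RNA, more RNA per cell and more cells of a type with the gene cannot be told apart.

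Contact with 344SQ cells changed 1 of the 9 genes. Pmepa1 was 2.15-fold higher than in CAFs alone, and none of the ligand, receptor and latent binder genes passed the test. That count of 1 in 9 stands against 5.84% of all 7992 genes called. The median log2 change was 0.04 over the 9 genes and -0.0067 over all genes. CAFs alone are the same 3 libraries as in the comparison with 393P.

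Pmepa1 stood at 183, 219 and 206 CPM with 344SQ, against 80.1, 102 and 102 CPM in CAFs alone. The groups were well separated, with a log2 change of 1.10 ± 0.17 (adjusted p = 3.75e-05, edgeR), and the call held without any single replicate and with the carcinoma marker covariate. Tgfb1 stood at 59.6, 53.3 and 58.8 CPM with 344SQ and at 40.5, 41.0 and 37.6 CPM in CAFs alone. All libraries with 344SQ were above those of CAFs alone, but the log2 change of 0.53 ± 0.22 missed the threshold (adjusted p = 0.190). The other 7 genes had overlapping groups and log2 changes between -0.30 ± 0.25 for Ltbp2 and 0.30 ± 0.18 for Tgfbr2. Carcinoma markers summed to 14.8 to 30.3 CPM with 344SQ and 7.09 to 13.2 CPM in CAFs alone, with Sftpc at 0, and 12 fibroblast markers to 5134 to 5468 CPM with 344SQ, against 4294 to 7022 CPM. The carcinoma marker level did not overlap between these groups either, so the covariate is confounded with them. Without replicate 3 of CAFs alone, edgeR called 284 genes in place of 467.

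**Figure D1:**
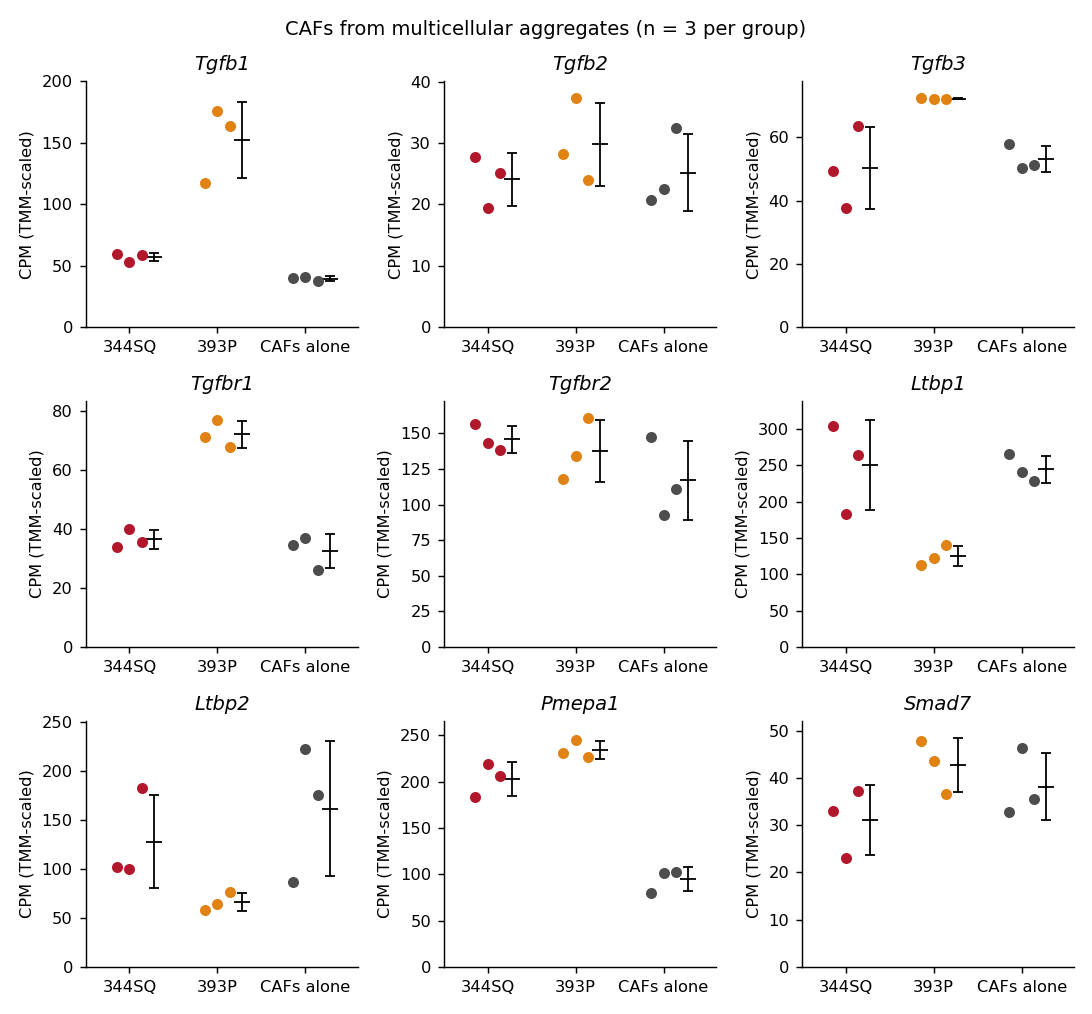
TMM-scaled CPM of the 9 genes in each aggregate library (points; black bar and whiskers: mean and SD, n = 3) for CAFs with 344SQ, with 393P and alone. Tgfb1 and Tgfbr1 are high with 393P, Ltbp1 and Ltbp2 are low with 393P, and Pmepa1 is above CAFs alone with both lines.

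Set against each other in aggregates, the lines differed in 4 of the 9 genes, against 4.15% of all genes called. CAFs with 344SQ had 2.66-fold less Tgfb1 and 1.98-fold less Tgfbr1 than CAFs with 393P, and 2.01-fold more Ltbp1 and 1.95-fold more Ltbp2. The median log2 difference was -0.31 over the 9 genes and 0.0071 over all genes.

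Tgfb1 stood at 59.6, 53.3 and 58.8 CPM with 344SQ and at 117, 176 and 164 CPM with 393P, a log2 difference of -1.41 ± 0.19 (adjusted p = 1.02e-05, edgeR). Tgfbr1 stood at 33.9, 40.0 and 35.5 CPM with 344SQ, against 71.3, 76.9 and 67.9 CPM with 393P (-0.99 ± 0.22, adjusted p = 0.00491). Ltbp1 stood at 304, 183 and 265 CPM with 344SQ and at 114, 122 and 141 CPM with 393P (1.0 ± 0.18, adjusted p = 0.000396). None of these 3 genes had overlapping groups, but separation of 3 libraries from 3 did not mark only the called genes. Ltbp2, Pmepa1 and Tgfb3 were separate too, and Tgfb3 was not called (-0.51 ± 0.21, adjusted p = 0.238, edgeR). The share of all genes with separate groups was not counted. In the shRNA table, which was scaled separately, Tgfb1 stood at 154, 121 and 176 CPM in CAFs with shCTL 344SQ cells. That difference from the 344SQ libraries here was not tested. Ltbp2 stood at 102, 99.4 and 182 CPM with 344SQ, against 58.2, 64.2 and 76.3 CPM with 393P (0.96 ± 0.26, adjusted p = 0.0280). Replicate 3 carried much of the 344SQ mean of Ltbp2: its difference was 0.61 without that library, 0.87 without 393P replicate 1 and 0.94 without 393P replicate 2, and its call was lost in each case and with DESeq2 (0.95). Pmepa1 did not pass, with a log2 difference of -0.21 ± 0.16 (adjusted p = 0.631), a miss that does not show equal levels.

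Across the membrane the pattern was another. With 344SQ cells in the Boyden chamber, CAFs had less Tgfb2 and Tgfb3 and more Tgfb1 and Ltbp2 than CAFs alone, 4 genes called of 9 against 14.9% of the 14040 genes tested. With 393P cells they had less Tgfb2 and Tgfb3 and slightly more Ltbp1, Ltbp2 and Tgfbr1, 5 genes of 9 against 15.6%. The changes were small, at most 1.79-fold, and the spread between replicates was smaller here than in the aggregates. The comparisons share the 5 replicates of CAFs alone. The median log2 change over the 9 genes was 0.04 with 344SQ and -0.11 with 393P, against 0.0064 and 0.00065 over all genes.

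Tgfb2 encodes a ligand that needs a co-receptor for strong receptor binding. It stood at 88.7, 66.3, 75.0, 99.7 and 92.2 CPM with 344SQ, at 104, 114, 93.4, 108 and 114 CPM with 393P, and at 119, 162, 135, 131 and 163 CPM in CAFs alone. Each chamber with cancer cells was below every chamber of CAFs alone, with log2 changes of -0.75 ± 0.10 with 344SQ (adjusted p = 3.57e-06, edgeR) and -0.41 ± 0.09 with 393P (adjusted p = 0.00428). Tgfb3 stood at 33.3, 32.8, 30.8, 31.9 and 35.7 CPM with 344SQ, at 43.3, 36.0, 36.4, 35.4 and 45.1 CPM with 393P, and at 57.1, 51.8, 53.3, 52.0 and 53.5 CPM in CAFs alone. Again no chamber with cancer cells reached the lowest of CAFs alone, and the log2 changes were -0.70 ± 0.08 with 344SQ (adjusted p = 3.41e-07) and -0.45 ± 0.07 with 393P (adjusted p = 0.000202). Ttll5, which lies across Tgfb3 on the opposite strand, had 1949 counts in this table beside the 4174 of Tgfb3.

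Tgfb1 moved the other way with 344SQ. It stood at 25.2, 24.1, 20.4, 22.5 and 23.7 CPM with 344SQ, at 17.9, 16.8, 17.2, 20.2 and 16.8 CPM with 393P, and at 19.4, 17.8, 17.6, 16.0 and 15.8 CPM in CAFs alone. All 5 chambers with 344SQ were above the rest, while the 393P chambers lay within or near the range of CAFs alone. The log2 changes were 0.43 ± 0.09 with 344SQ (adjusted p = 0.00247, edgeR) and 0.04 ± 0.09 with 393P (adjusted p = 0.821).

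Among the receptors, Tgfbr1 stood at 28.5, 23.3, 26.5, 35.6 and 27.2 CPM with 344SQ, at 28.1, 30.9, 29.7, 29.7 and 28.0 CPM with 393P, and at 19.2, 23.4, 28.1, 24.5 and 22.6 CPM in CAFs alone. The 393P chambers met CAFs alone at the edge, with 1 chamber of CAFs alone at 28.1 CPM. The 344SQ chambers overlapped CAFs alone more widely, with chambers at 23.3, 26.5 and 27.2 CPM inside that range. The log2 change was 0.25 ± 0.11 with 344SQ (adjusted p = 0.120, edgeR) and 0.30 ± 0.10 with 393P (adjusted p = 0.0415). The call with 393P was lost in 9 of the 10 fits without 1 replicate (0.25 to 0.32), the exception being the fit without replicate 3 of CAFs alone, and with the carcinoma marker covariate (0.30). Tgfbr2 ranged from 129 to 145 CPM with 344SQ, from 135 to 148 CPM with 393P and from 148 to 162 CPM in CAFs alone, with log2 changes of -0.15 ± 0.05 (adjusted p = 0.0717) and -0.11 ± 0.05 (adjusted p = 0.156).

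Ltbp2 was the gene with the largest rise of the 9 here. It stood at 265, 262, 253, 225 and 269 CPM with 344SQ, at 157, 163, 191, 166 and 158 CPM with 393P, and at 161, 122, 141, 157 and 132 CPM in CAFs alone. All 344SQ chambers were above every other chamber, for a log2 change from CAFs alone of 0.84 ± 0.07 (adjusted p = 5.81e-09, edgeR). The 393P and CAFs-alone chambers overlapped, and the log2 change of 0.23 ± 0.07 (adjusted p = 0.0376) lost its call without replicate 2, 3 or 5 of CAFs alone (0.18, 0.22 and 0.20) or replicate 2, 3 or 4 with 393P (0.24, 0.17 and 0.22). Ltbp1 stood at 1241, 1255, 1298, 1242 and 1255 CPM with 344SQ, at 1393, 1497, 1381, 1367 and 1405 CPM with 393P, and at 1130.2, 1292, 1247, 1207 and 1242 CPM in CAFs alone. The 393P chambers were above all others, by a log2 change of 0.20 ± 0.05 from CAFs alone (adjusted p = 0.00840), and the change with 344SQ was 0.04 ± 0.05 (adjusted p = 0.665).

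The target genes did not pass against CAFs alone. Pmepa1 stood at 206, 223, 203, 212 and 220.5 CPM with 344SQ, at 209, 219.8, 204, 207 and 213 CPM with 393P, and at 267, 229.5, 238, 227 and 219 CPM in CAFs alone. The chambers with cancer cells were mostly lower than CAFs alone but overlapped them, with log2 changes of -0.15 ± 0.06 (adjusted p = 0.0853, edgeR) and -0.16 ± 0.06 (adjusted p = 0.0526). Smad7 stood at 55.6, 52.1, 46.9, 45.7 and 48.1 CPM with 344SQ, at 39.7, 45.6, 39.7, 39.7 and 41.9 CPM with 393P, and at 48.3, 50.4, 43.6, 46.8 and 44.3 CPM in CAFs alone. CAFs alone lay between the lines, and the log2 changes from them were 0.09 ± 0.07 with 344SQ (adjusted p = 0.430) and -0.18 ± 0.07 with 393P (adjusted p = 0.10).

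**Figure D2:**
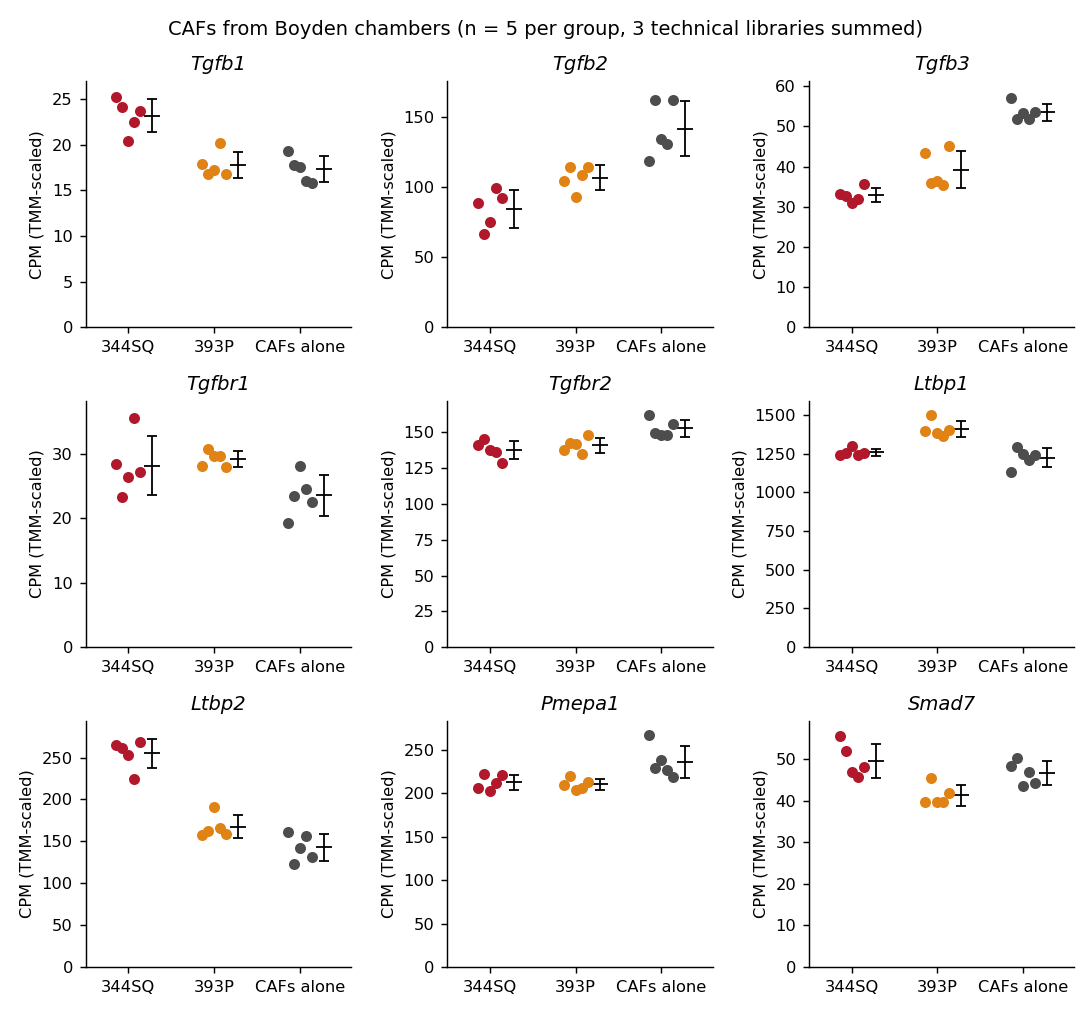
TMM-scaled CPM of the 9 genes in each Boyden replicate (points, 3 technical libraries summed; black bar and whiskers: mean and SD, n = 5) for CAFs with 344SQ, with 393P and alone. Tgfb2 and Tgfb3 are below CAFs alone with both lines, and Tgfb1 and Ltbp2 are highest with 344SQ.

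Between the lines across the membrane, 4 of the 9 genes were called, against 3.88% of all genes. CAFs with 344SQ had more Ltbp2 (log2 difference 0.61 ± 0.07, adjusted p = 3.76e-06, edgeR), Tgfb1 (0.38 ± 0.10, adjusted p = 0.0178) and Smad7 (0.27 ± 0.07, adjusted p = 0.0379) than CAFs with 393P, and less Tgfb2 (-0.35 ± 0.10, adjusted p = 0.0490). For Ltbp2, Tgfb1 and Smad7 the chambers of the lines did not overlap, and for Tgfb2 they did. Ltbp1 had separate chambers as well but was not called (-0.16 ± 0.05, adjusted p = 0.0816, edgeR). The call of Ltbp2 held without any single replicate. That of Tgfb1 was lost without 344SQ replicate 1 (0.35) or 393P replicate 5 (0.36) and with no count filter (0.36). That of Smad7 was lost without 344SQ replicate 1, 2 or 5 (0.22, 0.25 and 0.27) or 393P replicate 1, 3, 4 or 5 (0.25, 0.26, 0.26 and 0.27) and with no count filter (0.24). That of Tgfb2 was lost in 8 of the 10 fits without 1 replicate (-0.27 to -0.39), the exceptions being 344SQ replicate 4 and 393P replicate 3, and with the carcinoma marker covariate (-0.35) or upper-quartile scaling (-0.34). The direction of Tgfb1 between the lines was thus opposite in the aggregates, where it was lower with 344SQ; the difference between these differences was not tested.

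In the Boyden table the 16 carcinoma markers summed to 29.4 to 51.2 CPM with 344SQ, 17.6 to 88.9 CPM with 393P and 25.4 to 39.6 CPM in CAFs alone, overlapping ranges, with Cldn3 at 0 throughout. The 12 fibroblast markers summed to 7279 to 7901 CPM with 344SQ, 7963 to 8311 CPM with 393P and 9229 to 9677 CPM in CAFs alone, and the part of this difference in the TGF-beta genes was not tested. The 6 endothelial markers summed to 6.46 to 10.6, 7.60 to 11.0 and 13.1 to 17.9 CPM in the same order of groups. With only the first technical library of each replicate, which held 289848 to 2724947 counts, the calls left were Tgfb2 with 344SQ and Ltbp1 with 393P against CAFs alone, and none between the lines. Tgfb1 with 344SQ then had a log2 change of 0.24 and Ltbp2 with 393P one of -0.02. Levels also differed between technical libraries: in most replicates library 1 had more Tgfb2 and less Ltbp2 than library 3. In CAFs-alone replicate 5 Tgfb2 stood at 208 and 144 CPM of the library total, and in 393P replicate 1 Ltbp2 at 84.3 and 164 CPM. Their weights in the sums were unequal, with 289848 and 2318025 counts in 344SQ replicate 5, against 1990836 and 3492157 in CAFs-alone replicate 5. The part of this in the Boyden changes was not tested.

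Culture format was set against culture format by testing the difference of the log2 changes, aggregate minus Boyden, in a joint fit of both tables. The effect of 393P cells differed between formats for 6 of the 9 genes, against 8.98% of the 15193 genes tested, and that of 344SQ cells for 3 of the 9, against 4.73%. The format and the table cannot be told apart, so levels were not tested between them. The joint fit estimated the spread over both tables together, with a biological coefficient of variation of 9.50%. That is below the 16.2% of the aggregates, whose spread may thus be understated. For Pmepa1 with 393P the SE was 0.14 in the joint fit and 0.17 in the aggregates alone. P-values of the format test may therefore be too small. The median difference over the 9 genes was 0.76 for 393P and 0.15 for 344SQ, against 0.03 and 0.0046 over all genes. Effects quoted below for each format are from the separate fits of the tables. They therefore do not subtract exactly to the differences, which are from the joint fit.

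For Tgfb1 the effect of 393P was 1.94 in aggregates and 0.04 in Boyden chambers, a difference of 1.98 ± 0.20 on the log2 scale (adjusted p = 3.96e-10, edgeR). For the other ligand gene called, Tgfb3, it was 0.44 in aggregates and -0.45 in Boyden chambers, a difference of 0.95 ± 0.19 (adjusted p = 0.000352). Tgfbr1 gave a difference of 0.93 ± 0.22 (adjusted p = 0.00336), lost with the first technical library alone (0.83). Contact with 393P thus went with more Tgfb1, Tgfb3 and Tgfbr1, relative to the effect across the membrane. The difference of Tgfb2 had the same sign, 0.76 ± 0.29, but missed the threshold (adjusted p = 0.103, edgeR). The latent binder genes went the opposite way, with differences of -1.10 ± 0.16 for Ltbp1 (adjusted p = 1.69e-06) and -1.40 ± 0.25 for Ltbp2 (adjusted p = 6.77e-05). Both were lower than CAFs alone in contact and slightly higher across the membrane. Pmepa1 differed by 1.56 ± 0.14 (adjusted p = 4.14e-11).

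With 344SQ, Pmepa1 had the largest difference of the 9, 1.30 ± 0.15 (adjusted p = 2.45e-08, edgeR), from effects of 1.10 in aggregates and -0.15 in Boyden chambers. Ltbp2 differed by -1.06 ± 0.23 (adjusted p = 0.00242), from -0.30 in aggregates and 0.84 in Boyden chambers, and lost its call with the first technical library alone (-0.92). Tgfb3 differed by 0.68 ± 0.20 (adjusted p = 0.0421), a call that ended in 10 of the 16 fits without 1 replicate (0.45 without 344SQ aggregate replicate 3) and under 6 other settings (0.49 to 0.70). Tgfb2 had a difference of 0.75 ± 0.31, larger than that of Tgfb3 but with a wider SE, and did not pass (adjusted p = 0.197, edgeR). For Tgfb1 the effects of 344SQ were 0.53 and 0.43, and their difference of 0.15 ± 0.22 did not pass (adjusted p = 0.824).

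**Figure D3:**
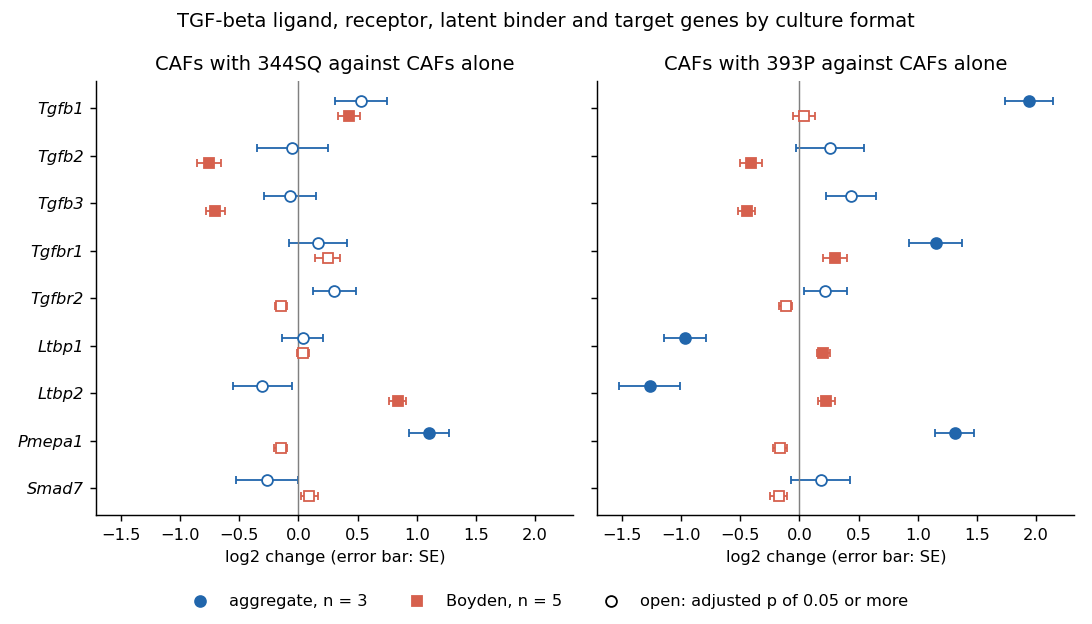
Log2 change against CAFs alone (x axis, with SE) of each gene in CAFs with 344SQ (left) and with 393P (right), in aggregates (circles, n = 3) and Boyden chambers (squares, n = 5); filled symbols had an adjusted p under 0.05. The formats are farthest apart for Tgfb1, Pmepa1, Ltbp1 and Ltbp2 with 393P, and for Pmepa1 and Ltbp2 with 344SQ.

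To compare levels between genes, CPM were divided by the exon length of each gene in kilobases. In the aggregates Pmepa1 ranked first with 344SQ (37.3 to 44.7 CPM per kb) and with 393P (46.1 to 49.9 CPM per kb), clear of the gene ranked next. In CAFs alone Ltbp1 (21.4 to 24.8 CPM per kb), Ltbp2 (10.5 to 27.1) and Pmepa1 (16.3 to 20.9) led, and Ltbp2 did not differ from either neighbour beyond its spread. In every Boyden group Ltbp1 ranked first, with 116 to 121 CPM per kb with 344SQ, 128 to 140 with 393P and 106 to 121 in CAFs alone, followed by Pmepa1 at 41.2 to 45.3, 41.4 to 44.7 and 44.5 to 54.3 CPM per kb. At the low end, Tgfb2 ranked last in each of the 5 aggregate groups, at 3.57 to 5.60 CPM per kb in CAFs alone. In Boyden chambers Tgfb1 and Tgfbr1 were lowest, at 3.14 to 3.84 and 2.94 to 4.30 CPM per kb in CAFs alone, ranges that overlap. The tables were scaled separately, and their formats are confounded with them.

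The ligand genes were also set against each other. As a share of the summed CPM per kb of the 3 ligand genes, Tgfb1 made up 33.5% to 42.3% with 344SQ, 47.0% to 56.1% with 393P and 26.5% to 30.3% in CAFs alone in the aggregates. The 3 groups did not overlap. Tgfb3 made up 44.4% to 53.9% with 344SQ, 34.0% to 43.2% with 393P and 53.7% to 59.5% in CAFs alone, and it was the leading ligand gene in CAFs alone and with 344SQ, where the ranges of Tgfb3 and Tgfb1 did not meet. In the Boyden chambers Tgfb2 led in every group, with 44.2% to 55.3% with 344SQ, 52.4% to 58.6% with 393P and 49.7% to 59.8% in CAFs alone. Tgfb1 there made up 14.4% to 18.5% with 344SQ, 9.16% to 12.1% with 393P and 6.68% to 9.33% in CAFs alone. The summed level of the ligand genes was 25.0 to 34.8 CPM per kb with 344SQ, 49.5 to 62.7 with 393P and 26.9 to 28.7 in CAFs alone in aggregates, and 25.9 to 31.2, 30.3 to 36.4 and 41.2 to 47.1 in the same order of groups in Boyden chambers. The 393P sum was thus the highest in contact and below CAFs alone across the membrane. No p-value is given for these shares, which are a score over genes of the set.

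**Figure D4:**
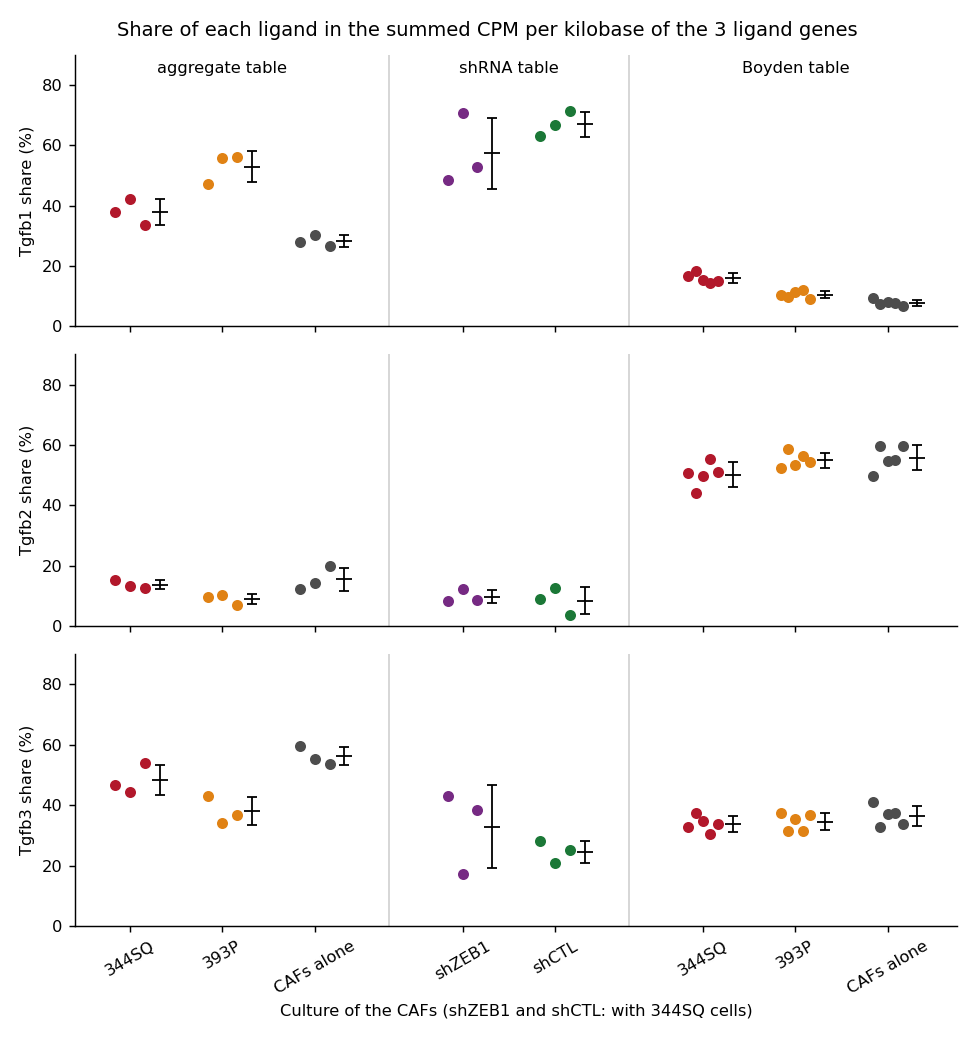
Share (%) of Tgfb1, Tgfb2 and Tgfb3 in the summed CPM per kilobase of the 3 ligand genes in each library or summed Boyden replicate (points; black bar and whiskers: mean and SD, n = 3, or 5 in Boyden). Tgfb1 is highest in the shRNA table and with 393P in the aggregate table, and Tgfb2 leads in every Boyden group.

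The genes around the set were read from lists of the pathway. Among genes that anchor or activate latent TGF-beta, 5 were higher and 1 lower of 13 tested in aggregates with 393P, and 3 were higher and 1 lower with 344SQ, against 10.7% and 5.84% of all genes called, with a median log2 change of 0.23 in each. Fbn1, the gene of the fibrillin to which latent complexes are anchored, stood at 2140.0, 2296 and 2092 CPM with 393P, against 557, 584 and 560.3 CPM in CAFs alone. Its log2 change was 1.94 ± 0.15 with 393P (adjusted p = 2.01e-10, edgeR) and 1.09 ± 0.15 with 344SQ (adjusted p = 1.03e-05). Lrrc32, which encodes a cell surface anchor of latent TGF-beta, stood at 249, 354 and 333 CPM with 344SQ, against 119.8, 100.4 and 115 CPM in CAFs alone, a log2 change of 1.47 ± 0.19 (adjusted p = 2.47e-06). Thbs1, the gene of the activator thrombospondin 1, stood at 2216, 2287 and 3344 CPM with 344SQ, at 1653, 1144 and 1171 CPM with 393P, and at 3146, 5409 and 4404 CPM in CAFs alone. It fell by 0.72 on the log2 scale with 344SQ, where the groups overlapped (SE 0.20, adjusted p = 0.0211), and by 1.71 with 393P, where they did not (SE 0.20, adjusted p = 2.65e-07). Lrrc32 was also higher with 393P (0.92, adjusted p = 0.000777), so Fbn1 and Lrrc32 rose and Thbs1 fell in contact with both lines. Without replicate 3 of CAFs alone, 2 genes of the list were called with 344SQ in place of 4.

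Across the membrane this list gave 1 higher and 3 lower of 14 with 344SQ and 1 higher and 5 lower with 393P, against 14.9% and 15.6% of all genes called, with median log2 changes of -0.08 and -0.17. The genes with the smallest p were Mmp14, a membrane protease, and Ltbp4, another latent binder, with 344SQ (-0.29 ± 0.07 and -0.37 ± 0.09, adjusted p = 0.00380 and 0.00411, edgeR), and Thbs1 and Mmp14 with 393P (-0.25 ± 0.06 and -0.28 ± 0.07, adjusted p = 0.00449 and 0.00476). The list with 344SQ had 2 genes called in place of 4 without CAFs-alone replicate 5 or 344SQ replicate 4. The effect of 393P differed between formats for 7 of 14 genes, against 8.98% of all genes called, among them Fbn1 (2.19 ± 0.13, adjusted p = 2.42e-16, edgeR) and Furin (1.34 ± 0.17, adjusted p = 1.23e-07). That of 344SQ differed for 5 of 14, against 4.73% of all genes called, among them Fbn1 (1.37 ± 0.13, adjusted p = 1.13e-09) and Lrrc32 (1.37 ± 0.20, adjusted p = 7.70e-06). Without 344SQ aggregate replicate 1 or 2 the 5 became 3. Between the lines, 344SQ over 393P, Fbn1 differed by -0.85 ± 0.15 and Itgb5, an integrin subunit gene, by -0.95 ± 0.18 in aggregates (adjusted p = 0.000361 and 0.000759, edgeR). There 1 was higher and 3 lower of 13, against 4.15% of all genes called. Thbs1 differed by 0.24 ± 0.06 in Boyden chambers (adjusted p = 0.0149), 1 of 14 against 3.88%.

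**Figure D5:**
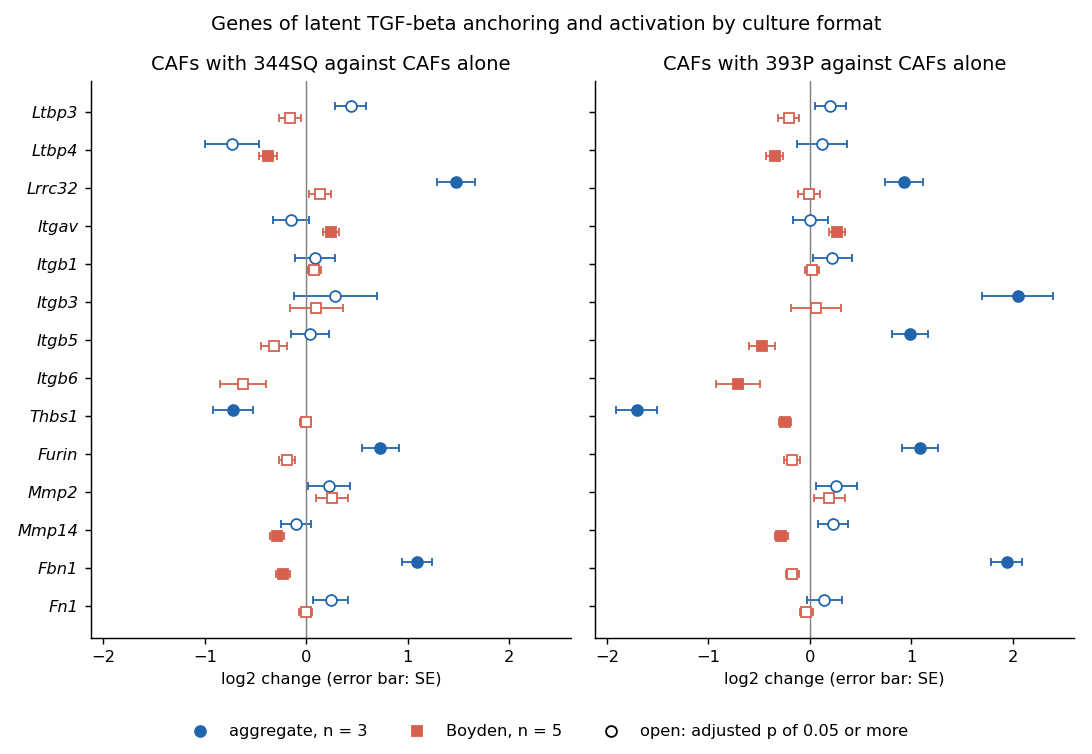
Log2 change against CAFs alone (x axis, with SE) of every tested gene of the list of latent TGF-beta anchoring and activation, in CAFs with 344SQ (left) and with 393P (right), in aggregates (circles, n = 3) and Boyden chambers (squares, n = 5); filled symbols had an adjusted p under 0.05. Fbn1, Furin and Lrrc32 are above CAFs alone in aggregates with both lines, and none of these 3 is above it in Boyden chambers with an adjusted p under 0.05.

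The co-receptor gene Tgfbr3, whose product betaglycan presents ligand and above all the product of Tgfb2, fell in contact with both lines and rose across the membrane with 344SQ. It stood at 330, 217 and 248 CPM with 344SQ, at 147, 132 and 129 CPM with 393P, and at 390.3, 324 and 458 CPM in CAFs alone in aggregates, lowest in each library with 393P. The log2 changes were -1.52 ± 0.18 with 393P (adjusted p = 1.92e-07, edgeR) and -0.56 ± 0.17 with 344SQ (adjusted p = 0.0442). With 344SQ the call was lost without CAFs-alone replicate 1 or 3 or 344SQ replicate 2 or 3. It was the only gene called of the 4 co-receptor and type I receptor partner genes tested in each, against 10.7% of all genes called with 393P and 5.84% with 344SQ. Across the membrane Tgfbr3 was higher with 344SQ by 0.45 ± 0.06 (adjusted p = 1.96e-06, edgeR), as was the type I receptor gene Acvr1b (0.70 ± 0.13, adjusted p = 0.000288), 2 of 6 genes against 14.9% of all genes called. With 393P, Tgfbr3 had a change of 0.11 ± 0.06 (adjusted p = 0.192), and 0 of 6 were called, against 15.6%, a count near that share in so short a list. The effects differed between formats by -1.56 ± 0.16 for 393P (adjusted p = 3.20e-10) and -0.97 ± 0.15 for 344SQ (adjusted p = 1.59e-05).

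Of 14 Smad and Smad regulator genes tested in aggregates, 0 were called with 393P and 1 with 344SQ, counts near the shares of all genes called, 10.7% and 5.84%. With 393P, 11 of the 14 had a positive log2 change, with a median of 0.25, and with 344SQ 8 of 14, with a median of 0.01. With 393P, Smad3, a signal-carrying Smad, had a log2 change of 0.53 ± 0.18 (adjusted p = 0.0654, edgeR), and the gene called with 344SQ was the corepressor gene Tgif1 (0.71 ± 0.20, adjusted p = 0.0268). The call of Tgif1 stands alone in a count that was 0 without any of 4 replicates (CAFs alone 1 or 3, 344SQ 1 or 2), and without CAFs-alone replicate 2 or 393P replicate 1 or 3 the count with 393P was 1. Across the membrane 4 were higher and 2 lower of 14 with each line, against 14.9% of all genes called with 344SQ and 15.6% with 393P. Smad3 rose by 0.49 ± 0.08 and Smurf2, a ubiquitin ligase gene of the pathway, by 0.32 ± 0.06 with 344SQ (adjusted p = 9.22e-05 and 0.000217), and Smurf2 by 0.35 ± 0.06 and the corepressor gene Skil by 0.39 ± 0.08 with 393P (adjusted p = 0.000132 and 0.00105). In the format test, Nedd4l, another ubiquitin ligase gene, and Smad4 were called for 393P (1.16 ± 0.23 and 0.52 ± 0.15, adjusted p = 0.000340 and 0.0135, edgeR), 2 of 15 against 8.98% of all genes. Ski was called for 344SQ (0.73 ± 0.16, adjusted p = 0.00153), 1 of 15 against 4.73%. Both counts are near those shares. The pair called for 393P became 1 gene without CAFs-alone aggregate replicate 3 or 393P aggregate replicate 2.

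Of the genes known to be induced by TGF-beta, some were higher and some lower in contact, and nearly all of those called across the membrane were lower. In aggregates with 393P, 4 were higher and 3 lower of 21, against 10.7% of all genes called, with a median log2 change of 0.36 against -0.0023 over all genes. Postn, the periostin gene, led at 3.49 ± 0.20 (adjusted p = 4.76e-13, edgeR), and Col1a1, the main fibrillar collagen gene, had 0.87 ± 0.17 (adjusted p = 0.000573), while Lox, Tgfbi and Adam12 were lower. With 344SQ, 1 was higher and 1 lower of 21, close to the 5.84% of all genes, namely the repressor gene Snai1 (1.16 ± 0.20, adjusted p = 0.000287) and Adam12 (-1.89 ± 0.24, adjusted p = 2.47e-06). In Boyden chambers 1 was higher and 10 lower of 24 with 344SQ, and 0 higher and 11 lower with 393P, against 14.9% and 15.6% of all genes called, with median log2 changes of -0.18 and -0.27. Col3a1, another fibrillar collagen gene, fell by 0.90 with 344SQ (SE 0.07, adjusted p = 8.94e-10) and by 0.61 with 393P (SE 0.07, adjusted p = 1.97e-06), Timp1 rose by 0.48 ± 0.07 with 344SQ (adjusted p = 2.41e-05), and Col1a1 fell by 0.43 with 393P (SE 0.06, adjusted p = 1.85e-05). The effect of 393P differed between formats for 11 of 25 genes, against 8.98% of all genes called. Of these, 9 had the higher value in aggregates, led by Postn (3.81 ± 0.21, adjusted p = 8.38e-18, edgeR) and Col1a1 (1.37 ± 0.15, adjusted p = 5.13e-09). The effect of 344SQ differed for 3 of 25, against 4.73% of all genes called, led by Adam12 (-1.81 ± 0.21, adjusted p = 6.63e-08, edgeR), and for 1 without CAFs-alone aggregate replicate 3.

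Proteoglycans that bind TGF-beta had few tested members. In aggregates 2 of 2 were called with 393P and 1 of 2 with 344SQ, against 10.7% and 5.84% of all genes. In Boyden chambers 1 of 4 was called with 344SQ and 2 of 4 with 393P, against 14.9% and 15.6%. In aggregates the decorin gene Dcn was lower with 393P (-2.04 ± 0.30, adjusted p = 8.86e-06, edgeR) and the biglycan gene Bgn higher (0.75 ± 0.18, adjusted p = 0.00389), and Dcn was lower with 344SQ (-0.97 ± 0.27, adjusted p = 0.0279), a call not held without 344SQ replicate 2 or any replicate of CAFs alone. In Boyden chambers Fmod, the fibromodulin gene, was lower with 344SQ (-0.97 ± 0.08, adjusted p = 1.96e-09) and with 393P (-0.59 ± 0.08, adjusted p = 6.58e-06), as was Dcn with 393P (-0.65 ± 0.11, adjusted p = 0.000253).

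Between the lines, 344SQ over 393P, calls in the other lists stand against 4.15% of all genes called in aggregates and 3.88% across the membrane. In aggregates Postn was lower (-3.79 ± 0.20, adjusted p = 1.16e-13, edgeR) and Tgfbi, the gene of a secreted matrix protein, higher (2.42 ± 0.43, adjusted p = 0.000460), among 2 higher and 4 lower of 21 induced genes. Tgfbr3 was higher (0.96 ± 0.18, adjusted p = 0.000634; 1 of 4), as was Dcn (1.07 ± 0.32, adjusted p = 0.0489; 1 of 2), and Nedd4l was lower (-1.14 ± 0.27, adjusted p = 0.00977; 1 of 14). The count became 0 of the proteoglycan genes without 344SQ replicate 3 or 393P replicate 1 or 3, and with DESeq2 or the compared groups alone. It became 0 of the Smad genes without 344SQ replicate 1 or 3 or 393P replicate 2, and 2 without 393P replicate 3. Across the membrane 5 induced genes were higher and 2 lower of 24. Timp1, the gene of a metalloproteinase inhibitor, was higher with 344SQ (0.45 ± 0.07, adjusted p = 0.000173). Tgfbr3 and Acvr1b were higher (0.34 ± 0.06 and 0.63 ± 0.13, adjusted p = 0.000314 and 0.00317; 2 of 6), Fmod was lower (-0.38 ± 0.09, adjusted p = 0.00821; 1 of 4), and 0 of 14 Smad genes were called by edgeR, or 1 without 344SQ replicate 4 or 393P replicate 1. The 7 induced genes became 4 without 393P replicate 5, and the call of Thbs1 named above was lost without 344SQ replicate 1.

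The shRNA table set CAFs with shZEB1 344SQ cells against CAFs with shCTL 344SQ cells. No gene passed edgeR, 0% of the 7801 tested, and so 0 of the 9. Without adjustment 466 genes had a p under 0.05, none of them among the 9. DESeq2 called 27 of 9329 genes, 0.289%, and again 0 of the 9. Zeb1 stood at 144, 48.4 and 120.4 CPM with shZEB1, against 71.8, 105 and 50.3 CPM with shCTL, overlapping groups with a log2 change of 0.47 ± 0.53 (adjusted p = 0.896, edgeR). The knockdown was made in the cancer cells and these libraries are of CAFs, so the Zeb1 level here does not check it.

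Tgfb1 stood at 193, 170.2 and 94.2 CPM with shZEB1, against 154, 121 and 176 CPM with shCTL, overlapping groups with a log2 change of 0.02 ± 0.45 (adjusted p = 0.994, edgeR). Pmepa1 stood at 338, 285 and 106 CPM with shZEB1 and at 129, 129 and 109 CPM with shCTL. Both high libraries had the shRNA against Zeb1, but shZEB1 replicate 3 was the lowest of the 6, and the log2 change was 0.98 ± 0.48 (adjusted p = 0.799). Ltbp1 stood at 389.8, 478 and 415 CPM with shZEB1 and at 228, 258 and 374 CPM with shCTL, groups that did not overlap, with a log2 change of 0.58 ± 0.40 (adjusted p = 0.841). Ltbp2 stood at 723, 267 and 222 CPM with shZEB1 and at 390.2, 541 and 196 CPM with shCTL (0.11 ± 0.52, adjusted p = 0.980), so that replicate libraries of a group differed more than the groups. For the other 5 genes the groups overlapped, with log2 changes between -0.48 ± 0.61 for Smad7 and 0.76 ± 0.64 for Tgfb3. The carcinoma markers summed to 142, 1281 and 573 CPM with shZEB1, against 153, 116 and 1643 CPM with shCTL, and genes of ribosomal RNA type and mitochondrial genes took 45.2% to 53.4% with shZEB1, against 61.7%, 59.3% and 47.4% with shCTL. Their part in these levels was not tested.

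Of the pathway lists, 0 genes were called in this table. Those of highest level were Fn1, the fibronectin gene, with a log2 change of 0.56 ± 0.53 (adjusted p = 0.870, edgeR), Bgn with 0.64 ± 0.49 (adjusted p = 0.853), Col1a1 with 0.62 ± 0.44 (adjusted p = 0.843), Ski with 0.41 ± 0.43 (adjusted p = 0.880) and Tgfbr3 with -0.04 ± 0.52 (adjusted p = 0.990). Tgfb1 made up 48.6% to 70.6% of the ligand transcripts per kb with shZEB1 and 63.0% to 71.2% with shCTL.

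Genes whose log2 CPM most resembled each member were sought over the 15 summed Boyden replicates, among the 7826 other genes that passed the filter in both the Boyden and the aggregate tables. Tgfb1 was most like Dram1, Nek6 and Ccl7 (r = 0.91, 0.90 and 0.90), but over the 9 aggregate libraries the same pairs gave -0.41, -0.32 and -0.75. Tgfb2 was most like Nrbp2, Adamts5 and Prss23 (0.93, 0.92 and 0.92 in Boyden, and -0.06, -0.55 and 0.27 in aggregates). Tgfb3 was most like Nov, Timp2 and Atp1b1 (0.95 each in Boyden, and 0.33, 0.05 and -0.16 in aggregates). Ltbp2 was most like Rai14, Lrig1 and Ampd3 (0.95, 0.94 and 0.94 in Boyden, and -0.46, -0.64 and 0.54 in aggregates), and Pmepa1 like Mospd3, Kmt5a and Uap1l1 (0.91, 0.91 and 0.90 in Boyden, and 0.51, -0.11 and 0.01 in aggregates). For Tgfbr1 the genes were Otud4, Hnrnpf and Abhd13 (0.90, 0.90 and 0.87), for Tgfbr2 Cd81, Serinc3 and Efemp1 (0.92, 0.92 and 0.91), for Ltbp1 Sp1, Topbp1 and Elovl5 (0.91, 0.89 and 0.88) and for Smad7 F3, C3 and Ets2 (0.86, 0.85 and 0.84) in Boyden chambers. These are descriptions over replicates that fall into 3 culture groups and share a table, and most of the pairs named were far less alike in the aggregates.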

How the data were processed

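The deposited tables hold raw counts per gene and library. The submitters' processing notes name STAR, HTSeq and the mm10 build for the counts the authors deposited, and tool versions, strand setting, filters and annotation release were not given in the sources used. Identifiers are those of the deposited tables and positions those of GENCODE M21 on GRCm38, the assembly of mm10, matched without the version suffix, and counts of genes that overlap on opposite strands are uncertain. All value columns were mapped to samples.

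Counts were added over the 3 technical libraries per Boyden replicate. Each table was fitted with edgeR 4.0.16 (filterByExpr, minimum count 10; TMM; quasi-likelihood F test, 2-sided) in R 4.3.3, with all its groups in the fit. P-values were adjusted by Benjamini-Hochberg over every gene tested, and an adjusted p under 0.05 was a call. The format effect was an interaction in a joint fit. Scripts were tested on simulated data. Figures used matplotlib 3.10.9.

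The 9 genes and the lists were chosen with earlier results of these data known. The text names all 9, the 2 genes with the smallest p called from each pathway list (or the 1 of highest level), and 3 genes most like each member; Lox, Tgfbi and Adam12 with 393P in aggregates, and the genes pointed to in the plot of latency genes, were chosen after their values were seen. A gene that the rule names is not reported here. Alternatives were other scalings, removal of ribosomal RNA type and mitochondrial genes, no filter, DESeq2 1.42.0, limma 3.58.1 (voom), a replicate block, only the groups compared, the first technical library, each replicate left out and, added later, a carcinoma marker covariate.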

Additional observations from a re-analysis of the deposited data

Results flagged for a closer look

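In 3 of 27 sets of 5 replicates examined (each of the 9 genes in each of the 3 Boyden groups), a replicate lay far from the other 4, and chance picks out about 1 in 20 such sets. Ltbp1 stood at 1298 CPM in 344SQ replicate 3, against 1241 to 1255 CPM in the other 4, and at 1497 CPM in 393P replicate 2, against 1367 to 1405 CPM. Ltbp2 stood at 191 CPM in 393P replicate 3, against 157 to 166 CPM.

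The effect of a line against CAFs alone differed between the formats, aggregate minus Boyden, for several genes (edgeR interaction test). With 393P the log2 differences were 1.98 for Tgfb1, 1.56 for Pmepa1, 0.95 for Tgfb3, 0.93 for Tgfbr1, -1.10 for Ltbp1 and -1.40 for Ltbp2. With 344SQ they were 1.30 for Pmepa1, 0.68 for Tgfb3 and -1.06 for Ltbp2. The format is confounded with the table, its depth and its share of ribosomal RNA type and mitochondrial counts, and these cannot be told apart.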

How the results depend on the processing

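Of 32 gene results called, 17 kept their call under every alternative run, 15 lost it under at least 1, and 1 of these changed sign, Ltbp2 with 393P across the membrane (-0.025 with the first technical library). Counts of called genes among the 9 moved under some alternatives, among them the following. With no count filter, 2 genes were called between the lines in Boyden chambers. With the first technical library alone, 1 was called with 344SQ, 1 with 393P, 0 between the lines and 1 in the format test of 344SQ. Leaving out each replicate gave 3 to 4 with 393P in Boyden chambers, 4 to 6 with 344SQ and 1 to 4 between the lines there. It gave 3 to 4 between the lines in aggregates, and 6 to 7 and 2 to 4 in the format tests of 393P and 344SQ.

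Replicate numbers did not pair the samples: deviations of same-numbered samples correlated by -0.03 to 0.07 in the aggregates, by -0.30 to 0.26 in Boyden chambers, and by more than 0.1 in 1 of 3 shRNA pairs. With the replicate block the called genes numbered 5, 1 and 4 in the aggregate comparisons (393P, 344SQ, and 344SQ against 393P), 0 with the shRNAs, 4, 4 and 3 in the Boyden comparisons (344SQ, 393P, and 344SQ against 393P), and 6 and 2 in the format tests of 393P and 344SQ; Tgfb1 and Tgfbr1 in the shRNA table turned to -0.019 and -0.026.

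Results that were not called changed sign in 40 cases. With the first technical library these were Smad7 with 344SQ (-0.042), Tgfbr2 between the lines (0.0069), and Tgfbr1 (0.079) and Ltbp1 (-0.088) in the format test of 344SQ. With no filter it was Pmepa1 between the lines in Boyden chambers (-0.012). With the carcinoma covariate they were Tgfbr2 with 393P (-0.048), Tgfb2 (0.23) and Ltbp1 (-0.033) with 344SQ in aggregates, and Tgfbr2 in the shRNA table (-0.14). Leaving out each replicate gave ranges that cross 0. In aggregates with 344SQ these were -0.20 to 0.16 for Tgfb2, -0.29 to 0.092 for Tgfb3 and -0.12 to 0.22 for Ltbp1, and -0.017 to 0.20 for Tgfbr2 between the lines. In Boyden chambers they were -0.016 to 0.086 for Tgfb1 with 393P, and -0.16 to 0.0091 for Tgfbr1 and -0.0065 to 0.030 for Pmepa1 between the lines. In the format test of 344SQ they were -0.18 to 0.053 for Tgfbr1 and -0.12 to 0.22 for Ltbp1. In the shRNA table they were -0.19 to 0.29 for Tgfb1, -0.017 to 1.14 for Tgfb3, -0.38 to 0.49 for Tgfbr1, -0.35 to 0.36 for Tgfbr2 and -0.64 to 0.48 for Ltbp2.

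Over all genes, the first technical library gave 500 (344SQ), 609 (393P) and 73 (344SQ against 393P) calls in the Boyden table and 818 and 364 in the format tests of 393P and 344SQ. Voom gave 857 and 384 there. The covariate gave 366 with 393P and 271 with 344SQ in aggregates, and leaving out replicate 3 of CAFs alone gave 284 with 344SQ. In the shRNA table, 90 genes were called with no filter, 27 with DESeq2 and 1 with the block. The cause of these changes was not tested. The first technical library has a lower depth by construction, and technical libraries also differed in their levels of Tgfb2 and Ltbp2, as described for the Boyden table.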
